A study of Mus musculus with 8 samples.

Results

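The genes described here encode 9 enzymes of methionine and one-carbon metabolism, *Mat1a*, *Gnmt*, *Bhmt*, *Bhmt2*, *Cbs*, *Cth*, *Ahcy*, *Shmt1* and *Pemt*. They were chosen by name for their place in the pathway, with no threshold on their values, from a table of 14506 genes, and all 9 were listed and passed the filter on low values. Their transcripts were measured in whole liver of 8 young mice, 4 *Rragc* S74N/+ and 4 *Rragc* +/+. RagC, the product of *Rragc*, is a small GTPase through which amino acids activate the kinase complex mTORC1, and *Rragc* S74N/+ mice carry a knocked-in serine-to-asparagine substitution on 1 allele in every tissue, so effects within liver cells and effects reaching the liver from other tissues cannot be told apart. The *Rragc* +/+ mice carry no edited allele, and both genotypes are on a C57BL/6 background. Mice were 3 months old except for *Rragc* +/+ replicate 4 and *Rragc* S74N/+ replicate 3, which were 2.5 months old, and *Rragc* S74N/+ replicate 4, which was 2 months old and has no *Rragc* +/+ counterpart of its age. Sex, feeding state and hour of collection are not given in the labels. The labels give each library as a sample of its own, and the study counts animals, so each was taken as 1 mouse. Replicate numbers are names given here in sample order.

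Methionine is activated by methionine adenosyltransferase to S-adenosylmethionine (SAM), the methyl donor of the cell. Methyltransferases use SAM and leave S-adenosylhomocysteine, which is hydrolysed to homocysteine. Homocysteine is either methylated back to methionine, with betaine or a folate-borne carbon as the methyl source, or committed to cysteine through cystathionine. The liver is the main site of this cycle and carries isoforms that few other tissues use.

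Recovered reads ranged from 4313076 to 6632108 per liver, and these are reads in listed genes without molecular identifiers, so counting error understates the error of a value. Between 78 and 44501 reads stood behind each value given for the 9 genes. The edited gene did not check the labels, since a substitution need not alter its transcript, and *Rragc* lay between 63.7 and 112 normalized counts in all livers. Hepatocyte markers summed to 265511 to 467854 normalized counts per liver and 7 of 8 were listed. None of 9 exocrine pancreas markers was listed. Of 10 kidney tubule markers 6 were listed, of which only *Kap* had a mean above the filter, at 67.9 to 163 in *Rragc* +/+ livers and 6.69 to 46.2 in *Rragc* S74N/+ livers, and its part in the results was not tested. Cholangiocyte keratin genes *Krt7* and *Krt19* lay between 0 and 7.999 normalized counts. The other cholangiocyte markers were *Epcam*, at 0.932 to 14.5, and *Sox9*, at 81.3 to 357. *Rragc* S74N/+ replicate 4 stood apart from the other livers: it was the highest of the 8 for 7 of the 9 genes, and the fold changes, ratios and share of the 9 genes that it moves by over 1.5 times are also given without it. The summed count of 8 male-biased liver genes did not overlap between the genotypes, at 66501 to 73599.6 in *Rragc* +/+ livers and 57755, 32379, 57322 and 16976 in *Rragc* S74N/+ livers. The most abundant of them, *Mup20*, did overlap, at 36574 to 50581 in *Rragc* +/+ and 6881 to 36963 in *Rragc* S74N/+ livers. Of the 8 male-biased genes 1, *Elovl3*, had no overlap, where 2.94% of all tested genes had none. All 8 of these genes had a log2 fold change below 0, with a median of -1.04. Of them 3 had an unadjusted limma p under 0.05, where 5.17% of all tested genes did, and 0 passed the adjusted threshold. The part of these genes in the results was not tested. In whole tissue, fewer cells of a type and less transcript per cell cannot be told apart.

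The stretches upstream of *Bhmt2*, *Pemt* and *Cbs* are shown because *Bhmt2* and *Pemt* had opposite levels over the 8 livers, and *Cbs* was tied to both when *Rragc* S74N/+ replicate 4 was left out, as given further on. They come from RefSeq on GRCm38.p6, reverse strand, and hold up to 250 bases before a transcript start, without bases inside an annotated exon of the gene. The *Bhmt2* stretch is chr13:93674303-93674552 and the *Cbs* stretch is chr17:31637239-31637455, both directly upstream of the gene. The *Pemt* stretch, chr11:60040189-60040438, lies inside the span of the gene, before an internal transcript start. Capitals mark, on either strand, the TATA box TATAA, the CCAAT box, the GC box GGGCGG, the E-box CACGTG and the cyclic AMP response element TGACGTCA.
Bhmt2: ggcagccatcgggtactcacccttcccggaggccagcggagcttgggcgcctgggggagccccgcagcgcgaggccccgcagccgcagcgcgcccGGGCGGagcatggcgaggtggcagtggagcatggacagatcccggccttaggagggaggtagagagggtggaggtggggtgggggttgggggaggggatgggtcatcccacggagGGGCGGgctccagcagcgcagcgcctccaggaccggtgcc
Pemt: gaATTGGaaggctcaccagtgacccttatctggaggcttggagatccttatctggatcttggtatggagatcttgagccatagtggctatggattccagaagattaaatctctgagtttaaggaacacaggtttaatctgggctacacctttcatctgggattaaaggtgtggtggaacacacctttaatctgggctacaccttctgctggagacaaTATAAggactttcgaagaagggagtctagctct
Cbs: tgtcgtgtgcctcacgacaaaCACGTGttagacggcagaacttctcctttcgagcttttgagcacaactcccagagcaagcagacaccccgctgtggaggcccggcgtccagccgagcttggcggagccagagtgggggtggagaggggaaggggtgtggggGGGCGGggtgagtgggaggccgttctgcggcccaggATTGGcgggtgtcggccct
The *Bhmt2* stretch held the GC box at 2 positions and the *Pemt* stretch held the TATA box and a reverse CCAAT box. Another *Pemt* window, chr11:60037006-60037255, also inside the span of the gene, held none of the marked motifs and is not shown. The *Cbs* stretch held the E-box, the GC box and a reverse CCAAT box, and no marked motif overlapped another. Among 32851 upstream windows of 250 bases in the RefSeq table, 22.8% held the TATA box, 33.8% the CCAAT box, 32.7% the GC box, 6.02% the E-box and 1.55% the cyclic AMP response element. Windows were given for 7 of the 9 genes, 8 windows in all, and 6 of these held the CCAAT box, 4 the GC box, 2 the TATA box, 1 the E-box and 0 the cyclic AMP response element. These are matches of letters and not binding sites.

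Reads were primed at the poly(A) tail, so a transcript gives reads by its copies and not its length, and normalized read counts were set side by side between genes. Of the 50-base stretches in the last 500 bases, 32.2% of *Bhmt*, 25.1% of *Bhmt2* and 7.1% each of *Cbs* and *Ahcy* also occur in other genes. The part of this in the order of the genes was not tested. *Gnmt* and *Mat1a* had the highest means of the 9, at 14690.2 and 14654 normalized counts over the 8 livers, and did not differ in order beyond the spread, with *Gnmt* the higher in 6 of 8 livers. *Bhmt* (4541) and *Cbs* (4386) followed and changed places between livers, 4 against 4. *Pemt* (2469) was below *Cbs* and above *Ahcy* (991) in all 8 livers. *Cth* (508), *Bhmt2* (471) and *Shmt1* (424) had the lowest means, but *Cth* was above *Ahcy* and *Pemt* in *Rragc* S74N/+ replicate 4. *Cth* was above *Bhmt2* in 2 of 8 livers and *Bhmt2* above *Shmt1* in 4 of 8. *Gnmt* and *Mat1a* stood at places 40 and 42 of the whole table by mean count, and *Shmt1* at place 1584.

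To ask whether *Rragc* genotype altered these transcripts in young liver, each gene was read from a limma fit across 11174 tested genes. None of the 9 passed an adjusted p of 0.05, where 0.00895% of all tested genes did, a share that is 1 gene, *Gpx3*. At an unadjusted limma p under 0.05 there was 1 of the 9, *Mat1a*, against 5.17% of all tested genes. The genotypes overlapped for all 9, where 2.94% of all tested genes had no overlap. The log2 fold change was above 0 for 6 genes and below 0 for 3, with a median of 0.01, and the median of all tested genes was 0.01. With edgeR or DESeq2 on the recovered reads none of the 9 passed either, and 2 (*Mat1a* and *Cth*) had an unadjusted p under 0.05 in each. Of all 11174 tested genes, 618 had an unadjusted p under 0.05 with edgeR and 675 with DESeq2.

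**Figure D1:**
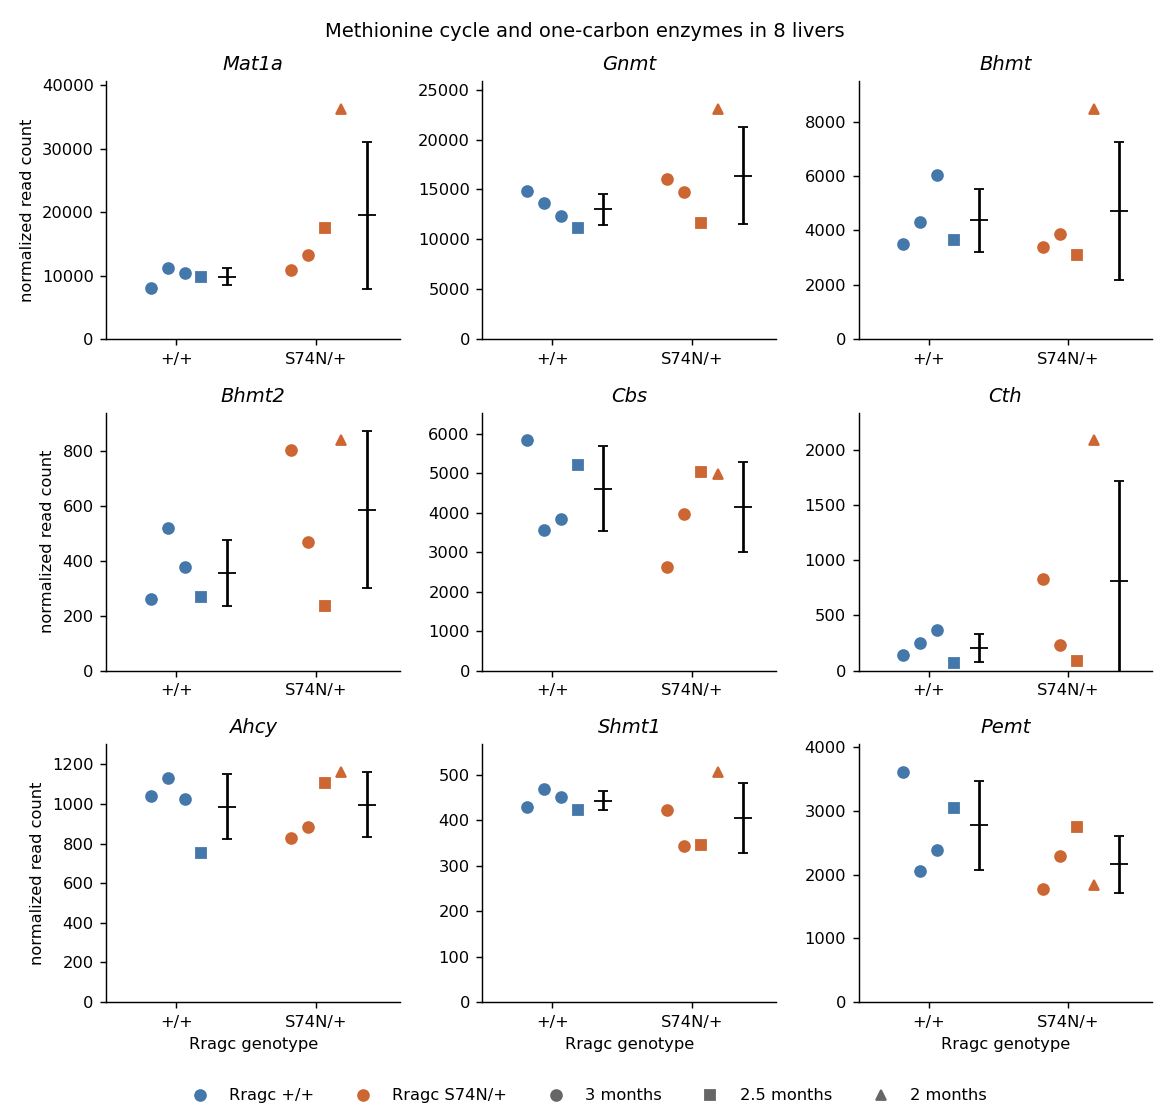
Normalized read count (vertical axes, linear from 0) of each enzyme gene in 4 Rragc +/+ and 4 Rragc S74N/+ livers, with a point per liver, its shape giving the age, and the mean ± SD beside each genotype (the lower end of the SD of Cth in Rragc S74N/+ runs below 0 and is not drawn). The 2-month-old Rragc S74N/+ liver was the highest of the 8 for Mat1a, Gnmt, Bhmt, Bhmt2, Cth, Ahcy and Shmt1, at 36303 for Mat1a and 2088 for Cth.

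*Mat1a* encodes the liver form of methionine adenosyltransferase, which makes SAM. It lies on chromosome 14 of GRCm38 from 41105035 to 41124412, forward strand. Its normalized count was 8056, 11153, 10329 and 9818 in the *Rragc* +/+ livers and 10859, 13228, 17487 and 36303 in the *Rragc* S74N/+ livers, in the order of replicates 1 to 4, which is kept for all genes. Of the *Rragc* S74N/+ livers 3 were above every *Rragc* +/+ liver and replicate 1 was below *Rragc* +/+ replicate 2, and the highest values belonged to the youngest *Rragc* S74N/+ mice. The means were 9839 ± 1309.8 and 19469 ± 11553 (mean ± SD, n = 4 each), giving a log2 fold change, with its standard error (SE), of 0.83 (SE 0.32, limma p = 0.0239, adjusted p = 0.846), and the exact two-sided permutation p was 0.0571 where the smallest possible is 0.0286. Without *Rragc* S74N/+ replicate 4 the log2 fold change was 0.48 (SE 0.23). Among 3-month-old mice, 2 against 3, it was 0.30 (SE 0.25), and with age as a factor 0.45 (SE 0.21).

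*Ahcy* encodes S-adenosylhomocysteine hydrolase, which removes the product of methyl transfer. The gene spans 155059310 to 155074497 of chromosome 2, reverse strand. Counts were 1038, 1129, 1026 and 752 in *Rragc* +/+ livers and 829.98, 882, 1107 and 1162 in *Rragc* S74N/+ livers. The genotypes overlapped almost entirely, with means of 986 ± 163 and 995 ± 164 (mean ± SD, n = 4 each) and a log2 fold change of 0.01 (SE 0.20, limma adjusted p = 0.991). Its direction changed with the mice compared, at -0.31 among 3-month-old mice, -0.11 without *Rragc* +/+ replicate 4, and -0.04 and -0.07 without *Rragc* S74N/+ replicates 3 and 4. Of the 50-base stretches in the last 500 bases of its transcript, 7.1% also occur in *Gm4737*, so some of its reads could belong to that copy.

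The methyltransferases among the 9 that spend SAM are encoded by *Gnmt* and *Pemt*. That of *Gnmt* acts on glycine, which disposes of surplus SAM, and that of *Pemt* on phosphatidylethanolamine, which yields phosphatidylcholine. *Gnmt* lies on chromosome 17 from 46725664 to 46729168, reverse strand. Its counts were 14806, 13692, 12354 and 11149.5 in *Rragc* +/+ livers and 16063, 14715, 11642 and 23100.4 in *Rragc* S74N/+ livers. The 2.5-month-old liver was the lowest of its genotype in both, and the genotypes overlapped. For *Gnmt* the log2 fold change was 0.30 (SE 0.24, limma adjusted p = 0.846), and 0.12 without *Rragc* S74N/+ replicate 4.

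*Pemt* lies on chromosome 11 from 59970614 to 60046489, reverse strand. Its counts were 3613, 2056, 2379 and 3051 in *Rragc* +/+ livers and 1780.2, 2296, 2739 and 1840.4 in *Rragc* S74N/+ livers. The lowest values were those of *Rragc* S74N/+ replicates 1 and 4, below every *Rragc* +/+ liver, and the other 2 *Rragc* S74N/+ livers lay within the *Rragc* +/+ range. The log2 fold change was -0.35 (SE 0.23, limma adjusted p = 0.846, exact two-sided permutation p = 0.2). It was the largest fitted difference below 0 among the 9 and stayed below 0, between -0.48 and -0.21, when any liver was left out, without passing the test.

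The betaine-dependent remethylation enzymes are encoded by *Bhmt*, whose product transfers a methyl group from betaine to homocysteine, and its neighbour *Bhmt2*, whose product prefers S-methylmethionine as the donor. They lie on chromosome 13, *Bhmt* from 93616675 to 93637961 and *Bhmt2* from 93655720 to 93674302, both on the reverse strand. *Bhmt* was at 3512, 4307, 6045 and 3631 in *Rragc* +/+ livers and 3388, 3871, 3092 and 8482 in *Rragc* S74N/+ livers. Only *Rragc* S74N/+ replicate 4 lay above the *Rragc* +/+ range, while 2 *Rragc* S74N/+ livers lay below it. The log2 fold change of *Bhmt* was 0.01 (SE 0.31, limma adjusted p = 0.994) and -0.31 (SE 0.23) without that liver, and was also below 0 without *Rragc* +/+ replicate 1 (-0.08) or 4 (-0.06).

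*Bhmt2* counts were 262, 518, 376 and 269 in *Rragc* +/+ livers and 803, 467, 236 and 839 in *Rragc* S74N/+ livers. *Rragc* S74N/+ replicates 1 and 4 were above all other livers, and replicate 3 was the lowest of the 8. The log2 fold change was 0.61 (SE 0.37, limma adjusted p = 0.846) and 0.72 (SE 0.31) among 3-month-old mice (limma adjusted p = 0.841). It was 0.38 without *Rragc* S74N/+ replicate 4, 0.40 without replicate 1 and 0.99 without replicate 3. The ends of both transcripts hold repeats: 32.2% of the 50-base stretches at the end of *Bhmt* and 25.1% at the end of *Bhmt2* occur in transcripts of other genes, and neither gene was among those of the other.

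The transsulfuration enzymes are encoded by *Cbs*, cystathionine beta-synthase, which commits homocysteine to cysteine, and *Cth*, cystathionine gamma-lyase, which releases the cysteine. *Cbs* lies on chromosome 17 from 31608894 to 31637238, reverse strand. Its counts were 5845, 3567, 3848 and 5211 in *Rragc* +/+ livers and 2618, 3979.8, 5041 and 4978 in *Rragc* S74N/+ livers. *Rragc* S74N/+ replicate 1 was the lowest of the 8, and the other 3 lay within the *Rragc* +/+ range. Its log2 fold change was -0.17 (SE 0.25, limma adjusted p = 0.892). It was 0.04 without *Rragc* S74N/+ replicate 1 and -0.27 without *Rragc* S74N/+ replicate 4.

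*Cth* lies on chromosome 3 from 157894248 to 157925077, reverse strand. It varied far more than the others, at 139.8, 251, 364 and 72.9 in *Rragc* +/+ livers and 826, 235, 88.04 and 2088 in *Rragc* S74N/+ livers. *Rragc* S74N/+ replicates 1 and 4 were above every *Rragc* +/+ liver, and the lowest liver of each genotype was its 2.5-month-old one. The range was 28.6-fold, against 1.47-fold to 4.51-fold for the other 8 genes. The SD within genotype on the log2 scale was 1.58, larger than in 98.6% of tested genes, and the log2 fold change of 1.31 had a standard error of 0.78 (limma adjusted p = 0.846, exact two-sided permutation p = 0.314). It was 0.56 without *Rragc* S74N/+ replicate 4, 2.08 without replicate 3 and 0.91 (SE 0.44) among 3-month-old mice, and 1.98 by both DESeq2 and edgeR. The span of *Cth* overlaps *Gm43314* on the same strand, and reads in shared bases could be assigned to either.

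*Shmt1* encodes the cytosolic serine hydroxymethyltransferase, which moves a carbon from serine to folate. It lies on chromosome 11 from 60788104 to 60811718, reverse strand. Counts were 431, 469, 451 and 422 in *Rragc* +/+ livers and 422, 345, 347 and 507 in *Rragc* S74N/+ livers. It was the steadiest of the 9, with a within-genotype SD of 0.19 on the log2 scale, smaller than in all but 5.09% of tested genes. *Rragc* S74N/+ livers lay on both sides of the *Rragc* +/+ range, and the log2 fold change was -0.15 (SE 0.19, limma adjusted p = 0.876). It was -0.26 without *Rragc* S74N/+ replicate 4 and -0.08 without replicate 2 or without replicate 3.

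**Figure D2:**
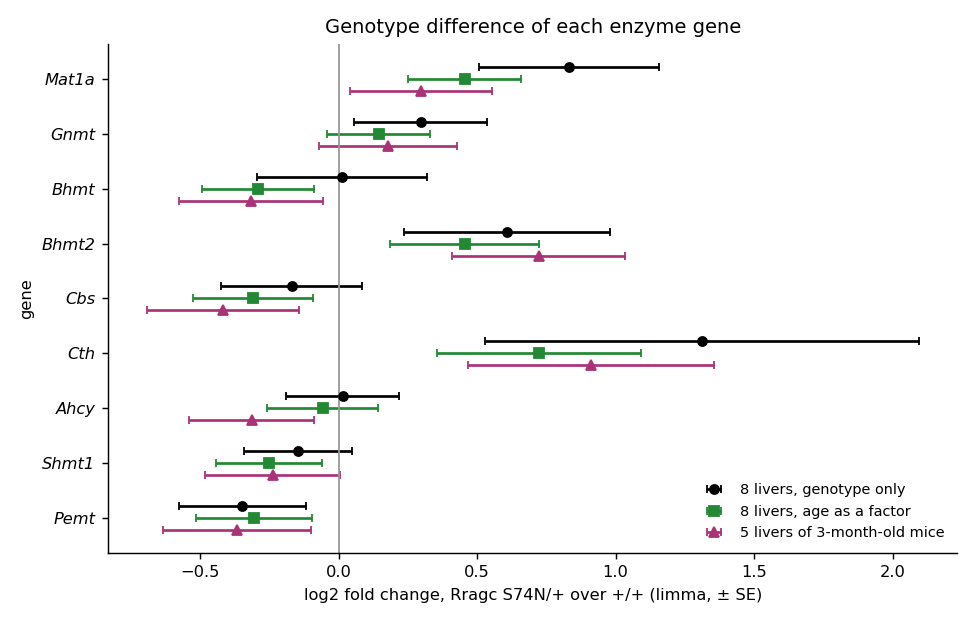
Log2 fold change of each enzyme gene in Rragc S74N/+ over Rragc +/+ livers (horizontal axis, limma estimate ± standard error) over 8 livers with genotype only, over 8 livers with age as a factor, and over the 5 livers of 3-month-old mice. Mat1a moved from 0.83 to 0.45 and 0.30, Bhmt from 0.01 to -0.29 and -0.31, and no estimate passed the adjusted threshold.

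Ages were unequal between the genotypes and the 2-month-old mouse cannot be told apart from the age of 2 months. Within 3-month-old mice, where 2 *Rragc* S74N/+ livers met 3 *Rragc* +/+ livers, *Bhmt2* was the only one of the 9 with an unadjusted limma p under 0.05. In that fit 641 of the 11174 tested genes had one. At 2.5 months there was 1 liver of each genotype and no test. There *Mat1a* was at 17487 in the *Rragc* S74N/+ and 9818 in the *Rragc* +/+ liver, *Ahcy* at 1107 and 752, and *Shmt1* at 347 and 422. The clock genes *Dbp* and *Nr1d1*, which peak in the daytime, were highest in these 2 livers of all 8, *Dbp* at 126 and 57.9 against 3.74 to 11.3 and *Nr1d1* at 846 and 734 against 154 to 389.7. Of the other clock genes taken as high at dusk, *Per3* (46.8 and 52.3) and *Nr1d2* (308 and 206) were also highest in them. *Per1* (15.6 and 0.934 against 0.932 to 29.4), *Per2* (10.03 and 19.6 against 6.55 to 41.3) and *Tef* (595 and 272 against 112 to 296) were not. *Cth* was lowest in the same 2 livers. The part of collection hour in these values was not tested.

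The 9 genes together took 0.621%, 0.643%, 0.609% and 0.59% of recovered reads in *Rragc* +/+ livers and 0.656%, 0.697%, 0.738% and 1.47% in *Rragc* S74N/+ livers. All 4 *Rragc* S74N/+ livers were above the *Rragc* +/+ range, which is a description of the sum. *Mat1a* and *Gnmt* made up 60.6% to 66.9% of that share in *Rragc* +/+ livers and 69.7% to 74.9% in *Rragc* S74N/+ livers. Without *Mat1a* the share of the other 8 genes was 0.422% to 0.489% and 0.429% to 0.795%, and the genotypes overlapped. The difference between the genotype means was 0.273 percentage points over all livers and 0.081 without *Rragc* S74N/+ replicate 4.

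**Figure D3:**
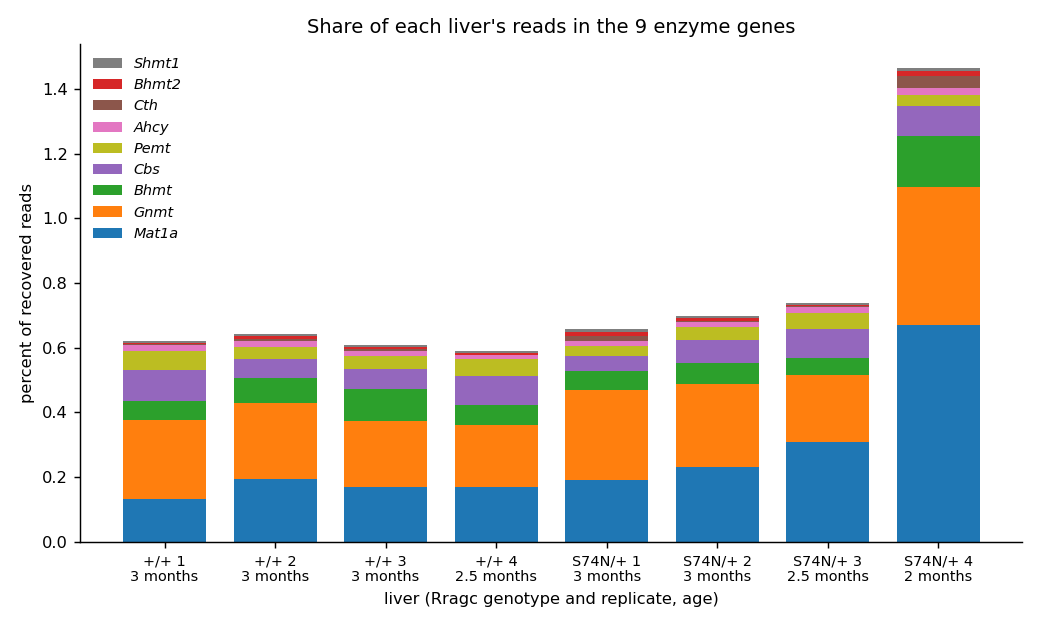
Percent of recovered reads (vertical axis, from 0) taken by the 9 enzyme genes in each of the 8 livers, stacked by gene, with genotype, replicate and age below each bar. The bars of 7 livers stand between 0.59% and 0.738%, and that of the 2-month-old Rragc S74N/+ liver at 1.47%.

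Enzymes that share a product or a substrate, or act in sequence, were compared as log2 ratios of normalized counts within each liver, 7 ratios in all. Genotypes were compared by exact permutation of the 70 possible labellings, two-sided, with Benjamini-Hochberg adjustment over the 7. None had an adjusted p below 0.3. The genotypes overlapped in all 7. *Mat1a* over *Mat2a*, the form used outside the liver, was 22.2, 21.96, 21.7 and 19.04 on the linear scale in *Rragc* +/+ livers and 19.8, 24.7, 25.9 and 72.5 in *Rragc* S74N/+ livers. Its log2 difference was 0.55 over all livers (exact permutation p = 0.114), 0.01 among 3-month-old mice and 0.14 without *Rragc* S74N/+ replicate 4. *Mat1a* was thus at least 19.04 times *Mat2a* in every liver.

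*Cbs* over *Cth* spanned the widest range, 41.5, 14.2, 10.6 and 70.6 in *Rragc* +/+ livers and 3.17, 16.9, 56.6 and 2.38 in *Rragc* S74N/+ livers. The 2.5-month-old livers were highest and *Rragc* S74N/+ replicates 1 and 4 lowest, and the log2 difference was -1.48 (exact permutation p = 0.314). It was -0.83 without *Rragc* S74N/+ replicate 4, -0.97 without replicate 1 and -2.35 without replicate 3. *Gnmt* over *Pemt*, the pair that spends SAM, ran from 3.65 to 6.66 in *Rragc* +/+ livers and was 9.02, 6.41, 4.25 and 12.5 in *Rragc* S74N/+ livers (log2 difference 0.64, exact permutation p = 0.171, and 0.39 without *Rragc* S74N/+ replicate 4). *Bhmt* over *Bhmt2* was 8.298 to 16.02 in *Rragc* +/+ livers and 4.21, 8.27, 13.04 and 10.1 in *Rragc* S74N/+ livers (log2 difference -0.60, exact permutation p = 0.143, and -0.27 without *Rragc* S74N/+ replicate 1).

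*Bhmt* stood 46.7 to 140.1 times above *Mtr*, whose product methylates homocysteine with folate, with a log2 difference of -0.19 (exact permutation p = 0.686) that was -0.45 without *Rragc* S74N/+ replicate 4 and 0.0774 without replicate 1. *Shmt1* was below *Shmt2*, the mitochondrial form, in all 8 livers, at 0.659 to 0.816 in *Rragc* +/+ livers and 0.509 to 0.784 in *Rragc* S74N/+ livers (log2 difference -0.30, exact permutation p = 0.143). *Pemt* over *Pcyt1a*, which serves the other route to phosphatidylcholine, was 6.34 to 9.81 and 6.02 to 7.34 (log2 difference -0.17, exact permutation p = 0.4, and -0.0447 without *Rragc* +/+ replicate 1).

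**Figure D4:**
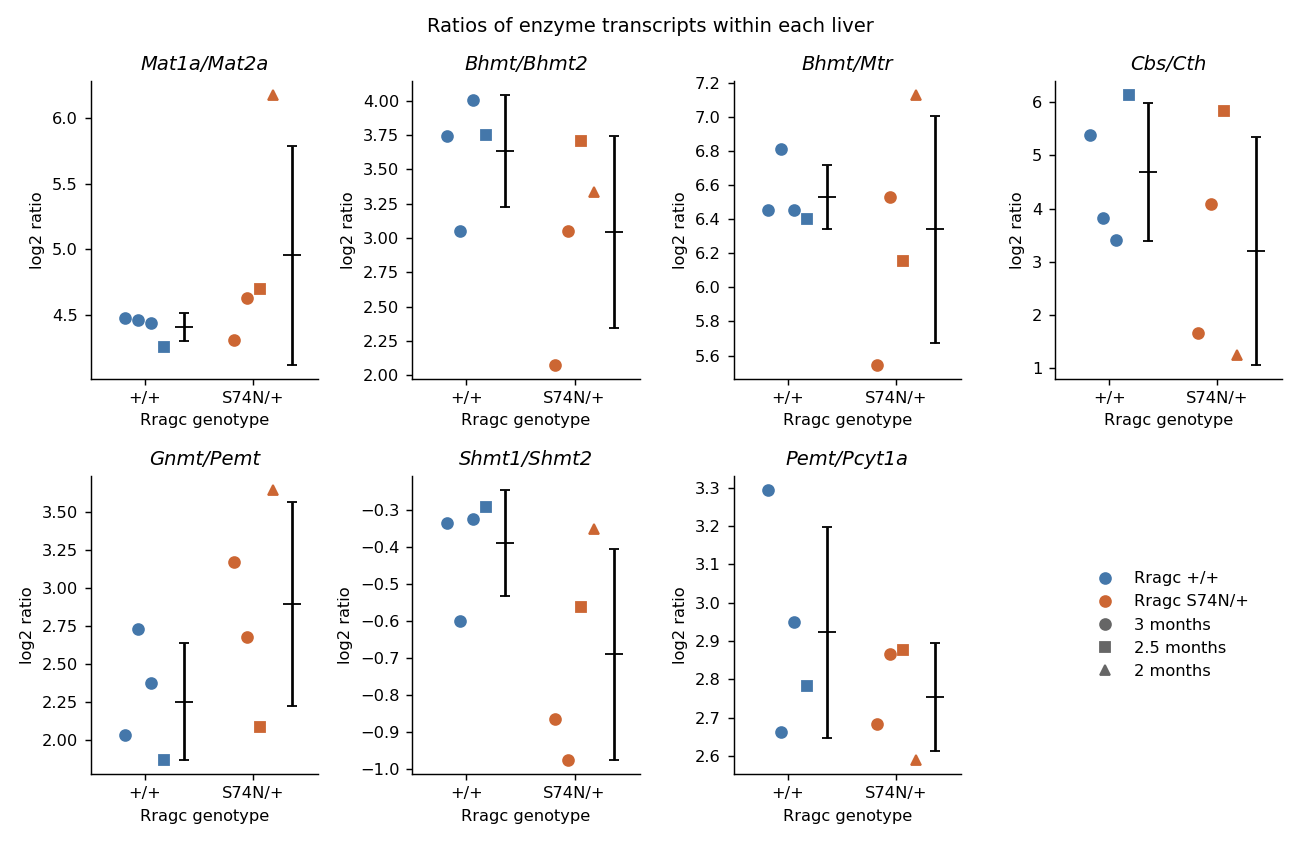
Log2 ratio of normalized counts (vertical axes) for 7 pairs of enzyme genes in each liver, by genotype, with a point per liver, its shape giving the age, and the mean ± SD beside each genotype. Mat1a over Mat2a lay at 4.25 to 4.69 in 7 livers and at 6.18 in the 2-month-old Rragc S74N/+ liver, and the genotypes overlap in every panel.

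Whether the 9 genes varied together between livers was asked over all 36 pairs, genotype ignored, on log2(normalized count + 1). Pearson's r was above 0 for 25 pairs and below 0 for 11. After Benjamini-Hochberg adjustment of exact permutation p over the 36 pairs, 2 pairs passed, both with *Bhmt2*. *Bhmt2* and *Cth* had r = 0.92 over 8 livers (exact permutation p = 0.00131, adjusted p = 0.0344) and Spearman's rho = 0.86 (exact permutation p = 0.0107, adjusted p = 0.138). *Bhmt2* and *Pemt* had r = -0.92 (exact permutation p = 0.00191, adjusted p = 0.0344) and rho = -0.90 (exact permutation p = 0.00456, adjusted p = 0.138). No pair passed by rho. Leaving out any single liver kept r between 0.90 and 0.94 for *Bhmt2* with *Cth* and between -0.96 and -0.89 for *Bhmt2* with *Pemt*, but no pair passed the adjusted threshold without *Rragc* +/+ replicate 2 or 4 or without *Rragc* S74N/+ replicate 1, 2 or 3. Without *Rragc* +/+ replicate 1 only the pair with *Pemt* of these passed, and without *Rragc* +/+ replicate 3 only the pair with *Cth*.

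Without the 2 livers farthest from the median of *Bhmt2*, *Rragc* S74N/+ replicates 1 and 4, r was 0.79 with *Cth* and -0.85 with *Pemt*. With values taken as deviations from the genotype means these pairs had r = 0.90 and -0.90, both with an adjusted permutation p of 0.0438. *Cth* with *Shmt1* also passed (r = 0.91, adjusted permutation p = 0.0438, against 0.58 and 0.327 before centring). Permutation of such deviations is not exact. *Gnmt* and *Cth* had r = 0.88 and missed the threshold (adjusted exact permutation p = 0.0542). No separate r was computed for the 5 livers of 3-month-old mice.

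*Cbs* and *Pemt* had r = 0.74 (adjusted exact permutation p = 0.2). Without *Rragc* S74N/+ replicate 4, in which *Cbs* was at 4978 and *Pemt* at 1840.4, r was 0.97 over 7 livers (adjusted exact permutation p = 0.0143). *Bhmt2* with *Cbs* and *Cth* with *Cbs* were at -0.96 and -0.91 without that liver (adjusted exact permutation p = 0.0486 for both), against -0.64 and -0.43 with it. *Mat1a* passed with no other member, and its r with *Shmt1* turned from 0.19 to -0.74 when that liver was left out.

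**Figure D5:**
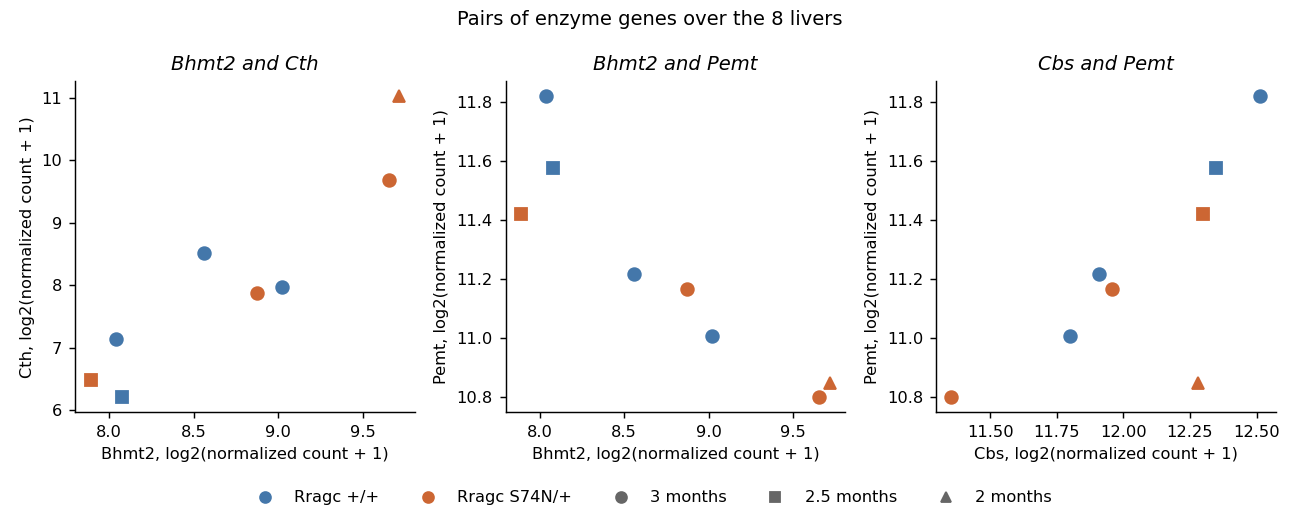
Log2(normalized count + 1) of Bhmt2 against Cth, Bhmt2 against Pemt, and Cbs against Pemt, with a point per liver coloured by genotype and shaped by age. The points run upward in the first panel (r = 0.92), downward in the second (r = -0.92) and upward in the third (r = 0.74), where the 2-month-old Rragc S74N/+ liver lies below the line of the other 7.

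Many genes outside the pathway followed the same order of livers. Of the 6916 other genes with a mean of at least 50, 4.83% had r of 0.9 or more with *Cth* and 4.61% had r of -0.9 or less, and for *Bhmt2* the shares were 3.9% and 3.92%. The first principal component of the 6917 genes held 52.7% of their variance, and r with it was 0.99 for *Cth*, 0.95 for *Bhmt2*, 0.83 for *Gnmt* and -0.85 for *Pemt*. Along it the livers ran from *Rragc* +/+ replicate 4, *Rragc* S74N/+ replicate 3 and *Rragc* +/+ replicate 1 to *Rragc* S74N/+ replicates 1 and 4. *Ahcy* (0.24), *Shmt1* (0.51), *Mat1a* (0.51) and *Cbs* (-0.55) followed it less. For *Mat1a*, 0.246% of genes had r of 0.9 or more, and for *Shmt1* 0.0434%.

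Genes most like each of the 9 were looked up among 6908 others by r over the 8 livers, as a description. *Mat1a* was most like *Tm6sf2* (r = 0.99), which acts in hepatic lipoprotein secretion, and *Papss2* (0.96), which makes the sulfate donor. *Tm6sf2* was at 203, 275, 242 and 236 in *Rragc* +/+ livers and 247, 298, 337 and 589 in *Rragc* S74N/+ livers, the same order as *Mat1a* in the *Rragc* S74N/+ livers. *Gnmt* was most like *Aldh1b1* (0.98) and *Dop1b* (0.97), *Bhmt* like *Mrpl42* (0.93) and *Gm34667* (0.91), and *Bhmt2* like *Prkar1a* (0.99) and *Lsr* (0.99).

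*Cbs* was most like *Cald1* (0.94) and *Naa35* (0.93), *Cth* like *Picalm* (0.99) and *Tm4sf4* (0.99), and *Ahcy* like *Afmid* (0.97) and *Slc12a9* (0.95). *Shmt1* was most like *Ppp1r7* (0.91), and *Pemt* like *Adarb1* (0.98) and *Spsb2* (0.98).

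The neighbouring reactions were covered by 83 further genes in 7 lists, of which 80 were listed in the table and 76 tested. None passed the adjusted threshold, 2 had an unadjusted limma p under 0.05, where 5.17% of all tested genes did, and 2 had no overlap between the genotypes, where 2.94% of all tested genes had none. Both counts, 2 of 76, were below the shares of all tested genes. The median log2 fold change of the 76 was 0.08, and that of all tested genes 0.01. Log2 fold changes were above 0 for 49 and below 0 for 27.

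*Papss2* was at 297, 379, 446 and 343 in *Rragc* +/+ livers and 487, 571, 538 and 1314 in *Rragc* S74N/+ livers. Every *Rragc* S74N/+ liver was above every *Rragc* +/+ liver, with a log2 fold change of 0.88 (SE 0.29, limma p = 0.0104, adjusted p = 0.846, exact two-sided permutation p = 0.0286, the smallest possible). *Got1*, the cytosolic aspartate aminotransferase, which also transaminates cysteine sulfinate, was at 335, 431, 319.7 and 197 in *Rragc* +/+ livers and 688, 627, 249 and 3231 in *Rragc* S74N/+ livers (log2 fold change 1.31, SE 0.57, limma p = 0.0389, adjusted p = 0.846, exact two-sided permutation p = 0.114). *Ahcyl2*, an *Ahcy* relative named after its values were seen, did not overlap either, at 52.3 to 69.2 in *Rragc* +/+ livers and 37.5 to 43.5 in *Rragc* S74N/+ livers (limma adjusted p = 0.846).

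In the list for methionine synthesis and SAM supply, 7 of 8 genes were tested and the median log2 fold change was 0.0035. *Adk*, which clears the adenosine released by *Ahcy*, was at 1611 ± 412 in *Rragc* +/+ livers and 1911 ± 604 in *Rragc* S74N/+ livers (mean ± SD, n = 4 each). *Mat2a* was at 465 ± 70.7 and 564 ± 75.99, and *Ahcyl1* at 335 ± 64.9 and 306 ± 29.3. In the folate list, 18 of 20 were tested, 12 above 0 and 6 below, with a median of 0.17. Its most abundant genes were *Ftcd*, which breaks down histidine into the folate pool, at 7207 ± 1733 and 5518 ± 2354, *Qdpr* at 3412 ± 1060.5 and 3487 ± 459, and *Aldh1l1*, the formyl-folate dehydrogenase, at 1635 ± 91.5 and 1974 ± 692.

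In the choline, betaine and glycine list, 12 of 14 were tested, with a median of 0.09. The sarcosine dehydrogenase gene *Sardh*, which acts on the product of *Gnmt*, was at 3425 ± 575 in *Rragc* +/+ livers and 3212 ± 437 in *Rragc* S74N/+ livers (mean ± SD, n = 4 each), *Aldh7a1* at 889 ± 233 and 1109 ± 301, and *Dmgdh*, which acts on the product of *Bhmt*, at 878 ± 170.2 and 730.3 ± 65.01. All 8 genes of the methyltransferase list were tested, 7 above 0 and 1 below, with a median of 0.25. *Inmt* was at 7838 ± 1785 and 10278 ± 3319, and *Gamt*, which makes creatine, at 1241 ± 226 and 1246 ± 216. *Nnmt*, which methylates nicotinamide and was named after its values were seen, was at 107 to 225 in 7 livers and at 1181 in *Rragc* S74N/+ replicate 4.

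In the phosphatidylcholine list, all 10 genes were tested, with a median of 0.09. *Pcyt2* was at 2288 ± 557 in *Rragc* +/+ livers and 1762 ± 466 in *Rragc* S74N/+ livers (mean ± SD, n = 4 each), *Etnk2* at 1644 ± 339 and 1519.8 ± 111, and *Chpt1* at 419 ± 144 and 516 ± 197. In the cysteine, taurine and sulfide list, 12 of 13 were tested, with a median of 0.04. *Csad*, which leads to taurine, was at 9612 ± 3443 and 8344 ± 2920.4, *Cdo1*, the cysteine dioxygenase, at 7895 ± 2146 and 7716 ± 795, and *Gclc*, which starts glutathione synthesis, at 2534 ± 588 and 2440.1 ± 454. In the salvage and polyamine list, 9 of 10 were tested, with a median of 0.03. *Adi1* was at 416 ± 60.2 and 427 ± 79.4, *Sat1* at 183 ± 50.8 and 203 ± 44.6, and *Srm* at 176 ± 41.9 and 157 ± 53.3.

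Other genes were also high in *Rragc* S74N/+ replicate 4, the liver with the highest values for 7 of the 9. The gluconeogenic gene *Pck1* was at 4095 in it and 425 to 1999 in the other livers, the serine dehydratase gene *Sds* at 919 against 13.98 to 299, and the glutaminase gene *Gls2* at 2849.5 against 247 to 887. *G6pc*, also gluconeogenic, was at 2211 in it and 902 to 3629 in the others. *Pck1*, *Sds* and *Gls2* are periportal markers, and of the rest *Hal* was also highest in it (3539 against 1881 to 2567). *Hsd17b13* was at 669 against 438 to 693, and *Cyp2f2* was lowest in that liver (5939 against 8641 to 10755). *Elovl3*, a male-biased gene, was at 102 in it and 2544 to 5978 in the others. Summed periportal markers were 12886 to 18011 in *Rragc* S74N/+ and 12396 to 14603 in *Rragc* +/+ livers with all 6 listed, and summed pericentral markers 11909 to 20803 and 14418 to 19846 with all 7 listed. The part of these in the levels of the 9 genes was not tested.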

How the data were processed

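QuantSeq 3′ libraries of whole liver from 8 mice, each taken as 1 animal, were grouped by the *Rragc* genotype in the labels. Per the study's methods and processing notes, TopHat2 2.0.10 with Bowtie 1.0.0 placed reads on GRCm38, HTSeq 0.6.1 counted them by strand, and the authors deposited a signal per gene, the read count divided by a DESeq size factor. All values were whole multiples of a per-liver step within a relative 1e-06, so whole reads were recovered, and the rarest listed gene had 6 reads over all livers. These counts cover listed genes only.

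The main test was limma 3.58.1 with trend in R 4.3.3 on log2(normalized count + 1), genotype only, over the 11174 of 14506 genes whose mean reached 10, with Benjamini-Hochberg adjustment and a threshold of 0.05. Fold changes are on that scale and understate the change of low genes. Single values, ratios and correlations used permutation in Python 3.11.15 with scipy 1.17.1, exact except for correlations of deviations from the genotype means. Alternatives were other pseudocounts, filters and scalings, limma without trend, edgeR 4.0.16 and DESeq2 1.42.0 on the recovered reads, age as a covariate or factor, 3-month-old mice only, and each liver left out. The fit was tested on simulated data. Limma p-values set the genotype difference against the spread between these livers within a genotype, and were adjusted over all tested genes.

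The 9 genes and all lists were chosen with earlier results of these data known. Within each pathway list the 3 most abundant tested genes and those with an unadjusted p under 0.05 were named, and the 2 most alike genes for each of the 9, except for 2 genes that are not reported here. Gene spans follow GENCODE M21 (GRCm38), and upstream sequence is RefSeq's on GRCm38.p6.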

Additional observations from a re-analysis of the deposited data

Results flagged for a closer look

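In groups of 4 livers, 34 were searched for a value far from the other 3, of which chance alone would flag about 1.7, and 4 had one. *Mat1a* over *Mat2a* had a log2 ratio of 4.25 in *Rragc* +/+ replicate 4, below 4.44 to 4.47 in the others of its genotype. In *Rragc* +/+ replicate 2, *Bhmt* over *Mtr* was at 6.81 on the log2 scale, above 6.399 to 6.46, and *Shmt1* over *Shmt2* at -0.60, below -0.33 to -0.29. The 9 genes took 1.47% of recovered reads in *Rragc* S74N/+ replicate 4, the 2-month-old mouse, above 0.656% to 0.738% in the others of its genotype.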

How the results depend on the processing

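None of the 9 genes and none of the 76 neighbouring genes passed the adjusted threshold in any of the 12 other settings or with any liver left out. The lowest adjusted p among the 9, from limma, edgeR or DESeq2, ran from 0.256 without *Rragc* S74N/+ replicate 3 to 0.999912 without *Rragc* S74N/+ replicate 4. Over all tested genes 1 passed. DESeq2 gave 10 and limma with age as a factor 3, while 3-month-old mice only, age as a covariate and limma without trend each gave 0 (with 641, 415 and 603 genes at an unadjusted p under 0.05), and edgeR gave 1. Leaving out a liver gave 0 to 2, with 2 without *Rragc* S74N/+ replicate 3, and between 315 and 1690 genes then had an unadjusted p under 0.05.

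The log2 fold change of *Bhmt* turned from 0.01 to -0.31 in 3-month-old mice, -0.29 with age as a factor and -0.16 with age as a covariate, and ran from -0.31 to 0.18 with a liver left out. That of *Ahcy* turned to -0.31, -0.0576 and -0.0242, and ran from -0.11 to 0.0968. With a liver left out *Cbs* ran from -0.28 to 0.0371 and the log2 difference of *Bhmt* over *Mtr* from -0.45 to 0.0774. The cause was not tested. Of the 36 correlations 2 passed over all livers and 0 to 5 with a liver left out, an alternative added after seeing the data, with 0 without *Rragc* +/+ replicate 2 and 5 without *Rragc* S74N/+ replicate 4.

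No paired analysis was possible because the labels number no replicates and tie no *Rragc* S74N/+ mouse to a *Rragc* +/+ mouse. With 4 livers a genotype, 1 of them 2 months old and unmatched, SEs of 0.19 to 0.78 on the log2 scale leave differences of that size undetected.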
